A study of Mus musculus with 6 samples.

Results

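The 9 transcription factors Hnf4a, Foxa1, Foxa2, Foxa3, Onecut1, Cebpa, Cebpb, Prox1 and Nr5a2, which hold the hepatocyte programme in place, were followed in mouse liver RNA. They were chosen by name as the rows of the gene-level count table that carry these symbols, 9 of 56674 rows, and all 9 passed the filter on low counts that left 18043 genes for testing. Each symbol stood on a single row.

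The livers came from male C57BL/6 mice reared for 71 weeks, either on chow containing polyethylene microplastic (PE-MP chow, 3 libraries) or on normal chow (3 libraries). The question put by the submitters was what prolonged exposure to the plastic does to hepatic gene expression. The labels give no dose, particle size, batch or cage, and leave unsaid whether separate animals were sampled, so the p-values reflect variation among libraries that may be technical. The labels name no transgene and no other agent in either group.

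Hepatocyte identity rests on a small circuit of DNA-binding proteins that activate each other's genes and share enhancers of liver genes. HNF4A is the nuclear receptor at its centre, the FOXA proteins open compacted chromatin, ONECUT1 and the C/EBP proteins act with them, and PROX1 and NR5A2 tune bile acid and lipid genes. None of these proteins is restricted to hepatocytes: FOXA1 and ONECUT1 are also made by bile duct cells, PROX1 by lymphatic endothelium, NR5A2 by the exocrine pancreas and C/EBP proteins by myeloid and fat cells.

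The promoters are shown first, because these proteins are known to bind each other's regulatory DNA. The windows are reference sequence, the same for both chows, and any link of a motif to a difference between chows was not tested. All 9 factors matched a RefSeq promoter entry, with 14 start sites among them, and the 250 bases before each start were searched on both strands for 6 short motifs. Sequences and positions are those of RefSeq build GRCm38.p6, whereas the submitters' processing notes give GRCm39 for the counts, so positions hold for the first build only. Printed stretches leave out bases that fall in an exon of any GENCODE M21 transcript, and capitals mark the motif matches.
Foxa1, chr12:57546122-57546361, minus strand, bases 250 to 11 before the start: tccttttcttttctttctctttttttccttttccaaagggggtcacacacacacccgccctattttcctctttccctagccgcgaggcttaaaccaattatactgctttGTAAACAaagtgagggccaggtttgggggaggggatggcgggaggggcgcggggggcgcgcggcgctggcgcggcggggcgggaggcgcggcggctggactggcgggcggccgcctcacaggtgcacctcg
Foxa2, upstream start, chr2:148046970-148047219, minus strand, bases 250 to 1 before the start: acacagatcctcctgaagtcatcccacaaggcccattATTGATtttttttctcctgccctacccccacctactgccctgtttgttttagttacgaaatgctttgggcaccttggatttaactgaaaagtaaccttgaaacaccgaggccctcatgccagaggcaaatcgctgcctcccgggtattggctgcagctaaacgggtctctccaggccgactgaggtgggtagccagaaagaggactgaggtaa
Foxa3, chr7:19023540-19023789, minus strand, bases 250 to 1 before the start: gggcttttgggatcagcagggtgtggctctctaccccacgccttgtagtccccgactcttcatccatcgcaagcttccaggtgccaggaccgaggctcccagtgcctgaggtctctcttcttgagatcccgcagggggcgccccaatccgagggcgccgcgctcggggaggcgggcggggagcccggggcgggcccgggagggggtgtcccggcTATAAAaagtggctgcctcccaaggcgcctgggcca
Hnf4a, upstream start, chr2:163506607-163506807, plus strand, bases 250 to 50 before the start: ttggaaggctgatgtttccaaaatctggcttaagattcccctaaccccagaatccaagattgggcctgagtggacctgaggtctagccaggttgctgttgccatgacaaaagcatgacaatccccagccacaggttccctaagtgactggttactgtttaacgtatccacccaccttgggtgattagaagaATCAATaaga
Hnf4a, downstream start, chr2:163546943-163547154, plus strand, bases 212 to 1 before the start: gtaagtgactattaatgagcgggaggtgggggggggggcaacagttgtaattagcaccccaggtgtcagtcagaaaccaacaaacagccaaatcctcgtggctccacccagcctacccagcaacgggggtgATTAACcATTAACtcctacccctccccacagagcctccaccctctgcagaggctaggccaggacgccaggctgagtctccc

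The forkhead motif TGTTTAC, the core that FOXA and FOXO proteins read, was present in the Foxa1 window, read on the strand opposite to the printed one, 141 to 135 bases before the start. No other window of the factors held it, against 3.16% of 32817 promoter windows genome-wide. The Foxa1 window precedes the RefSeq start but lies inside the GENCODE M21 span of the gene (chr12:57540628-57546916). The ONECUT core ATTGAT lay 59 to 54 bases before the upstream Hnf4a start, the one used in pancreas and fetal liver, and 213 to 208 bases before the upstream Foxa2 start. That core occurred in 6.73% of all promoters. A pair of homeodomain half-sites GTTAAT lay 81 to 76 and 74 to 69 bases before the downstream Hnf4a start, which is the one used in adult liver. The half-site occurred in 6.44% of all promoters and also in 1 window each of Foxa2 and Nr5a2. The TATA motif TATAAA stood on the strand of the gene 36 to 31 bases before the Foxa3 start and 30 to 25 bases before the Cebpa start. It was matched on the opposite strand in windows of Foxa2, Prox1 and Nr5a2. Counting either strand, 12.4% of all promoters held it. The C/EBP motif TTGCNNAA was found in 1 Nr5a2 window (9.57% of all promoters), and the NR5A2 motif CAAGGTCA in no window of the 9 factors (1.33%). No motif overlapped another in the printed stretches, and a match describes the letters, not a bound site. The gene-level counts do not separate transcripts of the upstream and downstream Hnf4a starts.

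Libraries held 75176645 to 91898953 counts under PE-MP chow and 68357478 to 112566641 under normal chow, so each factor was counted from at least 16 reads. Levels are CPM values, counts scaled to library size with TMM factors. These factors were 1.072 to 1.171 under PE-MP chow and 0.8795 to 0.9232 under normal chow, so levels compared between chows depend on them. Genes with at least 1 count numbered 24879 to 25742 under PE-MP chow and 23095 to 23872 under normal chow. The tissue label matched its markers. The summed level of 12 hepatocyte markers was 85688 to 93899 CPM under PE-MP chow and 80148 to 104156 CPM under normal chow, and Alb, serum albumin, averaged 53752 ± 1680 CPM under PE-MP chow and 53144 ± 5483 CPM under normal chow (SD, n = 3 each). Mitochondrial transcripts took 9.71 to 10.1% of counts under PE-MP chow and 14.9 to 16.4% under normal chow. Normal chow library 2 lay at -0.615 on the first principal component over genes, between the PE-MP libraries (-49.4 to -45.1) and the other normal chow libraries (69.3 and 73.6), and held 11.2% of its counts on an 18S ribosomal RNA row.

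Across the circuit, Foxa1 was the factor that separated the chows, while Hnf4a, Cebpa and the remaining factors overlapped between them. Foxa1 transcripts averaged 5.36 ± 2.68 CPM under PE-MP chow and 0.546 ± 0.298 CPM under normal chow (SD, n = 3 each), and every PE-MP library lay above every normal chow library. With edgeR's quasi-likelihood test adjusted over all 18043 genes, 0 of the 9 factors passed a threshold of 0.05, where 0.00554% of all tested genes (1 gene) passed. At an unadjusted edgeR p under 0.05 there was 1 factor, Foxa1, against 17.9% of all genes. By DESeq2, 1 of 9 passed an adjusted p of 0.05, again Foxa1, against 6.59% of all genes (3.10% higher and 3.48% lower under PE-MP chow). With limma-voom 0 of 9 passed, where 15 genes of the whole table did. The chows did not overlap for 1 of 9 factors, Foxa1, against 26.0% of all genes. Of the 9 log2 fold changes (PE-MP chow over normal chow), 4 were positive and 5 negative. Their median was -0.017, or -0.026 without Foxa1, against 0.018 over all tested genes. For 5 of the 9, Hnf4a, Foxa2, Foxa3, Cebpa and Nr5a2, the 95% interval lay within a factor of 2 in either direction, as it did for 49.7% of all genes with an interval.

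**Figure D1:**
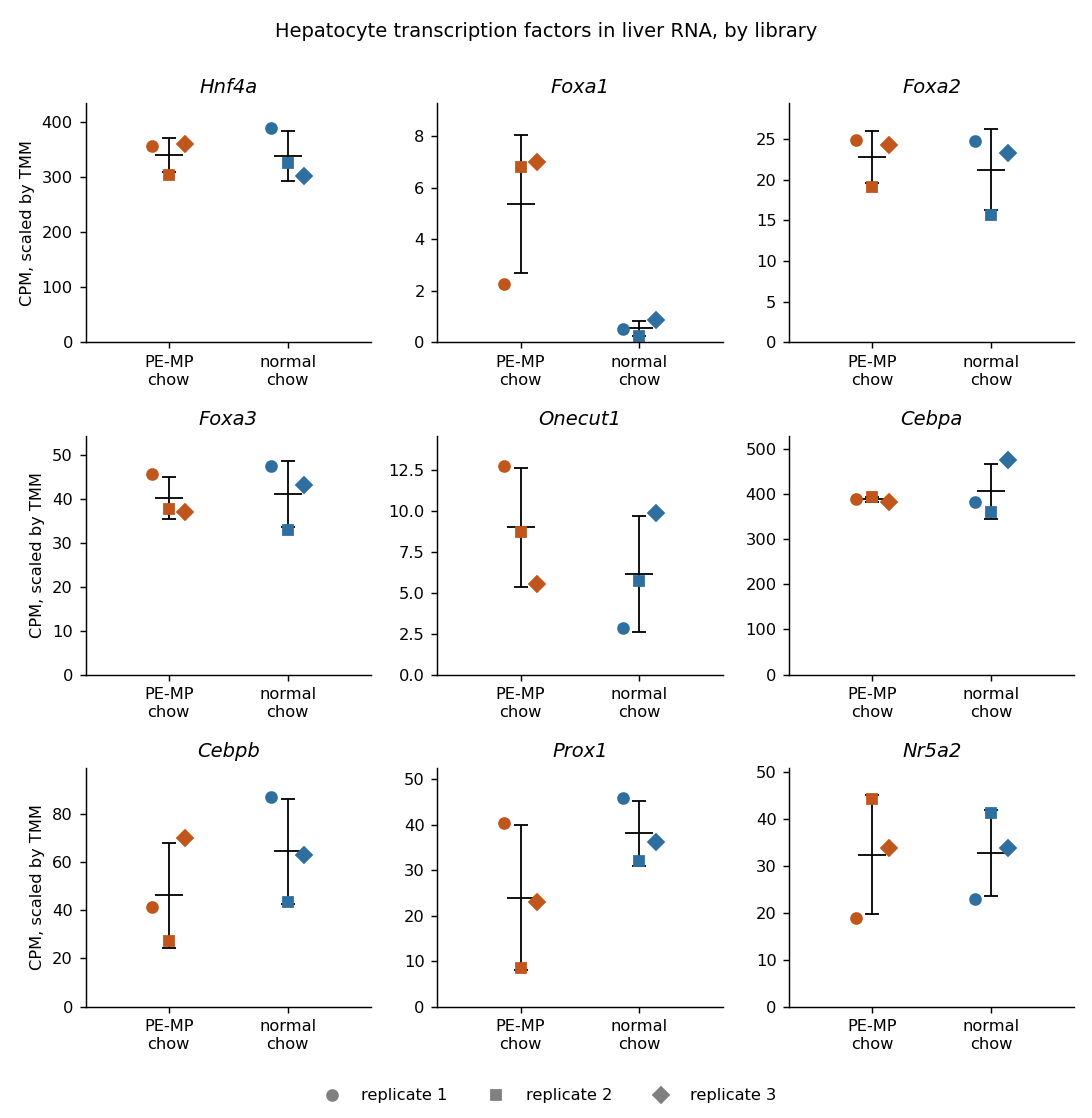
Level of each factor in every library, in CPM scaled by TMM factors (vertical axes start at 0), with PE-MP chow left of normal chow; symbols mark the replicate number, the long bar is the mean and the error bar 1 SD (n = 3 per chow). The PE-MP libraries held 2.27 to 7.02 CPM of Foxa1, all above the 0.266 to 0.859 CPM under normal chow, while the chows overlapped for the other 8 factors.

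Hnf4a encodes the nuclear receptor that drives apolipoprotein, clotting factor and bile acid genes. PE-MP libraries 1, 2 and 3 held 356, 304 and 359 CPM of Hnf4a, against 389, 325 and 301 CPM in normal chow libraries 1, 2 and 3. The chows covered nearly the same range. The log2 fold change was 0.0077 ± 0.14 (SE; 95% interval -0.33 to 0.35; edgeR adjusted p = 0.982). Hnf4a also varied little within a chow: the SD of its log2 level was 0.16, at the 19.3rd percentile of all tested genes, whose median SD was 0.31.

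Foxa1 encodes a pioneer factor that opens liver enhancers ahead of other activators and, in mice, works redundantly with FOXA2 in liver. PE-MP libraries 1, 2 and 3 held 215, 557 and 755 Foxa1 counts, or 2.27, 6.80 and 7.02 CPM. Normal chow libraries 1, 2 and 3 held 36, 16 and 87 counts, or 0.514, 0.266 and 0.859 CPM. The lowest PE-MP library (95% Poisson interval 1.98 to 2.60 CPM) lay above the highest normal chow library (0.688 to 1.06 CPM), intervals that cover counting error only. Within each chow, libraries differed by about the same ratio, 3.09-fold from lowest to highest under PE-MP chow and 3.23-fold under normal chow. The fold between chows was 9.69 (95% interval 3.59 to 26.2), or 3.28 ± 0.60 on the log2 scale (SE). Its adjusted p by edgeR was 0.124. DESeq2 gave 3.27 ± 0.55 with an adjusted p of 1.04e-06. Only 67 of 18043 tested genes (0.371%), Foxa1 included, had a log2 fold change as large or larger, while by edgeR p Foxa1 ranked 161. Over 16 alternatives its log2 fold change ran from 2.95 to 3.77 and its adjusted p from 1.04e-06 to 0.379, with DESeq2 alone under 0.05. Without normal chow library 2, the library that stood apart, edgeR gave 2.95 with an adjusted p of 0.057, while 1075 genes of the whole table passed.

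In bulk liver RNA, more Foxa1 per cell and more cells that make Foxa1 cannot be told apart. The 9 cholangiocyte markers, of cells that also make FOXA1, summed to 39.4 to 43.5 CPM under PE-MP chow and 29.6 to 38.8 CPM under normal chow, without overlap. Most of that sum was Spp1 and Slc4a2, and each overlapped between chows. Slc4a2 held 15.5, 18.9 and 20.6 CPM under PE-MP chow and 25.7, 11.6 and 12.5 CPM under normal chow. The keratins Krt19 and Krt7 averaged 0.494 and 0.350 CPM under PE-MP chow and 0.547 and 0.330 CPM under normal chow, also with overlap. None of these 9 markers was at 0 in every library, 6 were tested and 0 passed at an unadjusted edgeR p under 0.05 (17.9% of all genes). Sox9, a ductal factor, had 4.08, 4.10 and 1.64 CPM under PE-MP chow and 3.84, 5.71 and 5.63 CPM under normal chow. Spp1, osteopontin, had 17.9, 18.5 and 16.2 CPM under PE-MP chow and 7.78, 18.6 and 10.4 CPM under normal chow. Epcam, an epithelial adhesion protein, had 0.888, 1.09 and 0.744 CPM under PE-MP chow and 0.328, 1.02 and 0.207 CPM under normal chow, so all 3 markers overlapped. The part of bile duct cells in the Foxa1 difference was not tested. Of the neighbouring genes on the chromosome, Ttc6 had 1.86 ± 0.446 CPM under PE-MP chow and 1.01 ± 0.395 CPM under normal chow (log2 fold change 0.88 ± 0.34 SE; edgeR adjusted p = 0.249), without overlap. Mipol1, on the other side, had 2.31 ± 0.320 CPM under PE-MP chow and 2.23 ± 0.648 CPM under normal chow (0.054 ± 0.26; edgeR adjusted p = 0.931). Both neighbours were picked from the annotation by position.

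**Figure D2:**
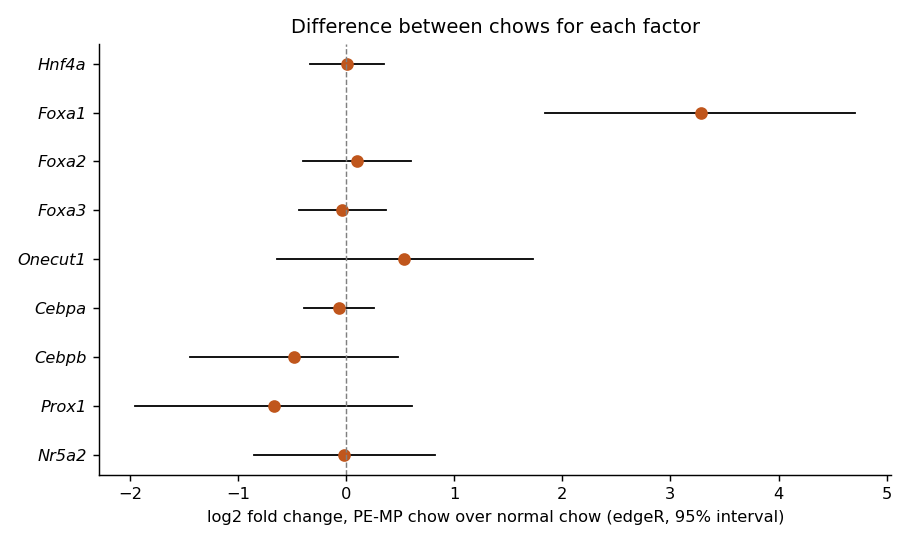
Log2 fold change of PE-MP chow over normal chow for each factor (points) with its 95% interval from edgeR (lines), n = 3 libraries per chow. The interval of Foxa1, 1.84 to 4.71, is the one that excludes 0, and those of Onecut1, Cebpb and Prox1 are the widest among the others.

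Foxa2, the paralog that with Foxa1 starts liver development, held 24.9, 19.1 and 24.3 CPM under PE-MP chow and 24.8, 15.6 and 23.3 CPM under normal chow. The lowest value in each chow was that of library 2, and the ranges overlapped almost fully. Its log2 fold change was 0.10 ± 0.21 (SE; 95% interval -0.40 to 0.60; edgeR adjusted p = 0.832). Foxa3, the most abundant of the FOXA mRNAs in adult liver, held 45.8, 37.8 and 37.1 CPM under PE-MP chow and 47.6, 32.9 and 43.1 CPM under normal chow, with a log2 fold change of -0.034 ± 0.17 (SE; -0.44 to 0.37; edgeR adjusted p = 0.933). All 3 PE-MP libraries of Foxa3 lay within the range of normal chow.

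Expressed as a share within each library, which needs no scaling between libraries, Foxa1 made up 3.12, 10.7 and 10.3% of the summed FOXA counts under PE-MP chow and 0.705, 0.545 and 1.28% under normal chow. The mean share was 8.02 ± 4.25% under PE-MP chow and 0.842 ± 0.385% under normal chow (SD, n = 3 each), 7.17 percentage points apart. The share of Foxa3 was 62.8, 59.4 and 54.3% under PE-MP chow, below the 65.3, 67.5 and 64.1% under normal chow, a difference of -6.80 points. Both differences gave p = 0.1 in an exact two-sided permutation test, the lowest value reachable with 3 libraries per chow, and 0.15 after adjustment over the 3 shares. Foxa2 kept to 34.1, 30.0 and 35.5% under PE-MP chow and 34.0, 32.0 and 34.7% under normal chow (exact permutation p = 0.9, adjusted 0.9). The shares of the 3 paralogs sum to 100%, so the differences are not independent. In absolute terms the summed FOXA level was 68.4 ± 4.67 CPM under PE-MP chow and 63.0 ± 12.6 CPM under normal chow (SD, n = 3 each), so Foxa1 remained the least abundant of the 3 in every library. Per kilobase of transcript its share was 5.38 ± 2.89% under PE-MP chow and 0.548 ± 0.251% under normal chow.

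**Figure D3:**
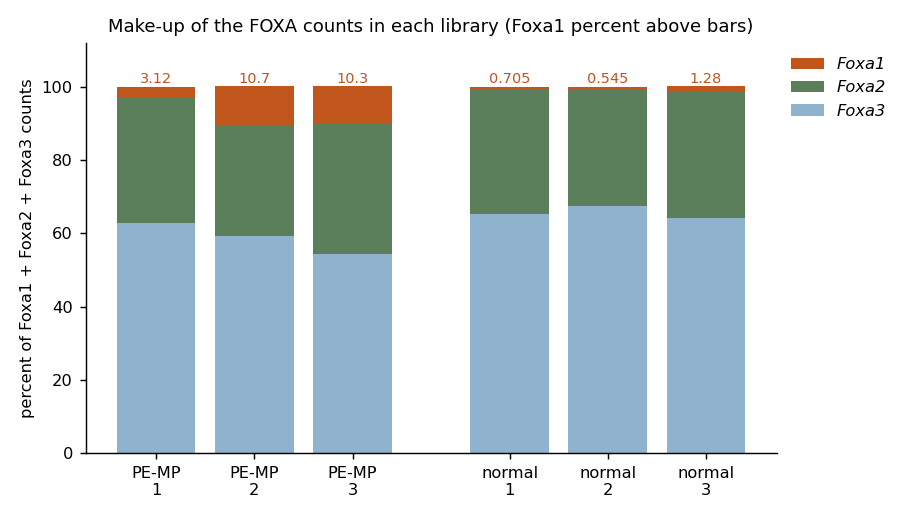
Percent of the summed Foxa1, Foxa2 and Foxa3 counts taken by each paralog in every library (stacked bars, axis from 0; number above each bar, the Foxa1 percent), with the 3 PE-MP libraries left of the 3 normal chow libraries. Foxa1 takes 3.12 to 10.7% in PE-MP libraries and 0.545 to 1.28% in normal chow libraries, and Foxa2 stays between 30.0 and 35.5% in all 6.

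Onecut1, also called HNF6, is a cut-homeodomain activator of Hnf4a, Foxa2 and glucose metabolism genes. It held 12.8, 8.73 and 5.54 CPM under PE-MP chow and 2.87, 5.72 and 9.90 CPM under normal chow, and the chows overlapped. The log2 fold change was 0.54 ± 0.49 (SE; 95% interval -0.64 to 1.73; edgeR adjusted p = 0.595), so a difference of up to about 3.33-fold higher or down to 0.640-fold lay inside the interval. Its spread within a chow was wide, an SD of 0.76 on the log2 scale (85th percentile of all genes). The log2 fold change was 0.21 without PE-MP library 1 and 0.20 when normal chow library 1 was left out, but 1.07 when normal chow library 3 was.

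Cebpa is the C/EBP factor of resting adult hepatocytes that sustains gluconeogenic and plasma protein genes. Its SD within a chow, 0.15 on the log2 scale, was close to the 0.16 of Hnf4a and below that of the other factors. Cebpa held 388, 394 and 383 CPM under PE-MP chow, a range of 1.03-fold (1.18-fold for Hnf4a). Under normal chow it held 382, 360 and 475 CPM, a range of 1.32-fold (1.29-fold for Hnf4a), and library 3 was highest. The log2 fold change of Cebpa was -0.064 ± 0.14 (SE; 95% interval -0.39 to 0.26; edgeR adjusted p = 0.835). Cebpb, its acute-phase and regeneration counterpart, was far more uneven, with 41.3, 27.2 and 69.9 CPM under PE-MP chow and 86.9, 43.3 and 62.9 CPM under normal chow. Its highest PE-MP library lay above 2 of the 3 normal chow libraries. The log2 fold change was -0.48 ± 0.40 (SE; -1.44 to 0.48; edgeR adjusted p = 0.558), with -0.21 without either PE-MP library 2 or normal chow library 1 and -0.92 without PE-MP library 3. The ratio of Cebpb to Cebpa counts within a library was 0.106, 0.069 and 0.182 under PE-MP chow and 0.227, 0.120 and 0.132 under normal chow, a mean log2 difference of -0.48 (exact two-sided permutation p = 0.4). That difference was -0.14 to -0.84 with 1 library left out, smallest without PE-MP library 2 and largest without PE-MP library 3.

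Prox1, a homeodomain protein that represses HNF4A and NR5A2 targets in hepatocytes, showed the widest range under PE-MP chow. PE-MP libraries 1, 2 and 3 held 40.5, 8.49 and 23.0 CPM, a 4.77-fold range, against 45.9, 32.1 and 36.3 CPM under normal chow, a 1.43-fold range. PE-MP libraries 2 and 3 lay below all normal chow libraries and PE-MP library 1 among them. The log2 fold change was -0.67 ± 0.53 (SE; 95% interval -1.95 to 0.61; edgeR adjusted p = 0.537), and it was -0.27 when PE-MP library 2 was left out and -1.26 when PE-MP library 1 was. PROX1 also marks lymphatic vessels: the 6 lymphatic endothelial markers summed to 77.4, 49.6 and 83.0 CPM under PE-MP chow and 91.3, 65.3 and 79.0 CPM under normal chow, lowest in the same PE-MP library 2. The largest part of that sum was Reln, an extracellular matrix protein also made by stellate cells. Reln held 57.4, 24.1 and 61.5 CPM under PE-MP chow and 70.3, 47.0 and 61.7 CPM under normal chow. No other marker of the list was lowest in library 2 among the PE-MP libraries. Flt4, the lymphatic growth factor receptor, was highest in PE-MP library 2, at 13.7, 19 and 13 CPM under PE-MP chow and 11.1 to 12.6 CPM under normal chow. Pdpn, podoplanin, stayed at 0.112 to 0.169 CPM under PE-MP chow and 0.178 to 0.666 CPM under normal chow. None of the 6 was at 0 in every library, and the part of lymphatic vessels in the Prox1 levels was not tested.

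Nr5a2, or LRH-1, is the nuclear receptor that activates bile acid synthesis genes. It held 19, 44.2 and 33.9 CPM under PE-MP chow and 23.0, 41.4 and 33.9 CPM under normal chow. In both chows library 1 was lowest and library 2 highest, and the log2 fold change was -0.017 ± 0.35 (SE; 95% interval -0.85 to 0.82; edgeR adjusted p = 0.983). Of 10 pancreatic acinar markers, for the other main tissue of this receptor, 8 were at 0 in every library (Cpa1, Cpb1, Pnlip, Prss2, Ctrb1, Amy2a5, Clps and Try4). The sum of the list, 9.59 to 12.7 CPM under PE-MP chow and 10.4 to 13.4 CPM under normal chow, was almost all Cela1 (9.53 to 12.4 CPM under PE-MP chow, 10.1 to 13.4 CPM under normal chow). Across the circuit, Foxa1, Prox1 and Onecut1 had the largest spread within a chow (SD of 0.86, 0.83 and 0.76 on the log2 scale) and Cebpa and Hnf4a the smallest (0.15 and 0.16).

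Levels can be ranked between genes only per kilobase, here by the longest GENCODE M21 transcript. Under PE-MP chow Cebpa came first with 148 ± 2.07 CPM per kilobase (SD, n = 3), followed by Hnf4a with 77.9 ± 7.04, Cebpb with 30.7 ± 14.5, Foxa3 with 19.8 ± 2.37 and Foxa2 with 10.7 ± 1.5. Nr5a2 at 6.84 ± 2.68, Prox1 at 3.03 ± 2.02, Onecut1 at 2.28 ± 0.914 and Foxa1 at 1.68 ± 0.839 closed the order. Under normal chow the order was the same, with Cebpa at 155 ± 23.3 CPM per kilobase (SD, n = 3), Hnf4a at 77.5 ± 10.4, Cebpb at 42.8 ± 14.5, Foxa3 at 20.2 ± 3.69 and Foxa2 at 9.99 ± 2.32. Below them were Nr5a2 at 6.93 ± 1.95, Prox1 at 4.82 ± 0.889, Onecut1 at 1.56 ± 0.894 and Foxa1 at 0.171 ± 0.0933. Libraries of Cebpa and Hnf4a did not overlap with each other or with lower factors in either chow. Foxa2 and Nr5a2 overlapped in both chows, as did Nr5a2 and Prox1. Onecut1 and Foxa1 overlapped under PE-MP chow but not under normal chow, as did Cebpb and Foxa3, and Prox1 and Onecut1.

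Long RNAs beside the factors were counted separately. Hnf4aos, transcribed against Hnf4a, held 0.709, 0.720 and 0.642 CPM under PE-MP chow and 1.77, 1.46 and 2.29 CPM under normal chow, so that all PE-MP libraries were lower. Its log2 fold change was -1.42 ± 0.25 (SE; edgeR adjusted p = 0.124; DESeq2 adjusted p = 0.000325). Without normal chow library 2 it was -1.56 with an edgeR adjusted p of 0.0352, a setting in which 1075 genes of the whole table passed. Relative to Hnf4a in the same library it made up 0.199, 0.237 and 0.179% under PE-MP chow and 0.456, 0.451 and 0.761% under normal chow (exact two-sided permutation p = 0.1). In GENCODE M21 (GRCm38) it lies on the minus strand at chr2:163493807-163541720, sharing 34913 bases of gene span but 0 exonic bases with Hnf4a at chr2:163506808-163572910 on the plus strand. The libraries kept the strand, but the strand setting of the counting is not given in the sources used here, so reads of a gene and its antisense partner may not have been told apart.

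Prox1os, antisense to Prox1 with 133 of its 828 exonic bases shared, held 4.09, 4.72 and 6.17 CPM under PE-MP chow and 4.87, 3.23 and 4.52 CPM under normal chow (log2 fold change 0.25 ± 0.24 SE; edgeR adjusted p = 0.618). It was not low in PE-MP library 2, where Prox1 was lowest, so its percent of Prox1 counts was 10.1, 55.6 and 26.9% under PE-MP chow and 10.6, 10 and 12.4% under normal chow (exact permutation p = 0.3). The intergenic RNA 9030622O22Rik, 2673 bases from Foxa2 and on the same strand, held 6.14, 4.76 and 5 CPM under PE-MP chow and 3.10, 5.16 and 3.04 CPM under normal chow (0.50 ± 0.26 SE; edgeR adjusted p = 0.363).

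**Figure D4:**
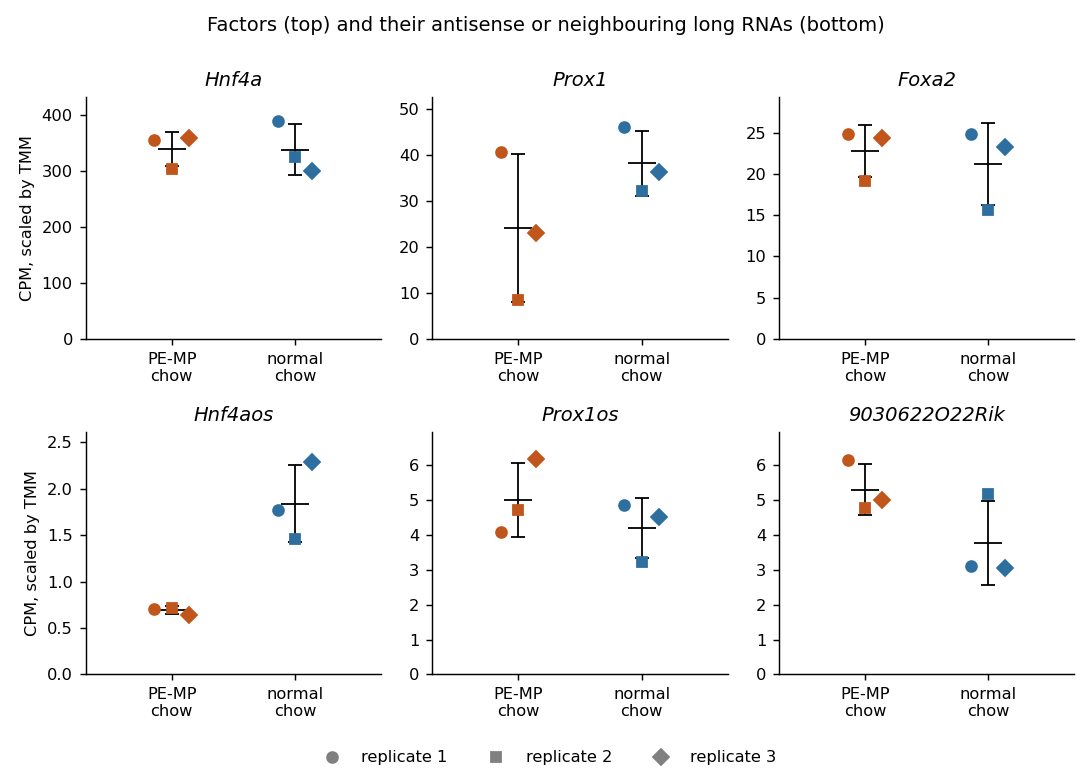
Levels in every library (CPM scaled by TMM factors, axes from 0) of 3 factors in the upper row and of the long RNA beside each in the lower row, PE-MP chow left of normal chow, with mean and SD (n = 3 per chow). Hnf4aos lies at 0.642 to 0.720 CPM in PE-MP libraries, below the 1.46 to 2.29 CPM in normal chow libraries, while Hnf4a overlaps; Prox1os does not share the low value of Prox1 in PE-MP library 2.

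Of 26 other liver transcription factors, 0 passed the edgeR threshold in either direction, 3 were higher and 1 lower under PE-MP chow at an unadjusted edgeR p under 0.05 (9.10% and 8.82% of all genes), and the median log2 fold change was 0.051 (0.018 over all genes), or 0.0044 to 0.056 with 1 library left out. DESeq2 passed 2 higher and 1 lower (3.10% and 3.48% of all genes). Creb3l3, the fasting factor CREBH, split the normal chow libraries, at 20, 21.4 and 13.5 CPM under PE-MP chow and 299, 12.6 and 306 CPM under normal chow (-3.50 ± 1.08 SE; edgeR adjusted p = 0.198), with library 2 as low as the PE-MP libraries. Without that library the value was -4.05 with an edgeR adjusted p of 0.00936. That setting leaves out the 1 low normal chow library, and 1075 genes of the whole table passed in it. Zbtb20, a repressor of Afp, held 0.677, 17.0 and 2.77 CPM under PE-MP chow and 0.400, 0.815 and 0.474 CPM under normal chow (3.61 ± 1.19 SE; edgeR adjusted p = 0.213), with PE-MP library 2 far above the other 5 libraries.

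Among 19 partners and regulators, which include coactivators, corepressors and the machinery that degrades C/EBP proteins, 0 passed, and 3 were higher and 0 lower at an unadjusted edgeR p under 0.05 (9.10% and 8.82% of all genes). The median log2 fold change was 0.075, but 0.23 without PE-MP library 1, 0.16 without normal chow library 3 and -0.048 with the length and GC offset. DESeq2 passed 1, Ncoa3 (3.10% of all genes were higher by DESeq2). The 3 were Ncoa3, a nuclear receptor coactivator (log2 fold change 0.48 ± 0.13 SE, edgeR adjusted p = 0.170), Trib1, the pseudokinase that directs C/EBPα to degradation (0.50 ± 0.16, 0.200), and Med1, the Mediator subunit that contacts nuclear receptors (0.38 ± 0.14, 0.229). Trib1 averaged 36.6 ± 5.48 CPM under PE-MP chow and 25.9 ± 3.61 CPM under normal chow (SD, n = 3 each), without overlap, while Cebpa mRNA overlapped. The chows did not overlap for 26.0% of all genes, and C/EBPα protein was not measured here. Nr0b2, or SHP, the corepressor of HNF4A and NR5A2, ranged widely in both chows, with 8.12, 20.1 and 29.2 CPM under PE-MP chow and 18.5, 26.8 and 8.05 CPM under normal chow (edgeR adjusted p = 0.938). Ppargc1a, the fasting coactivator of HNF4A, averaged 9.18 ± 0.256 CPM under PE-MP chow and 6.89 ± 2.36 CPM under normal chow (edgeR adjusted p = 0.443).

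Target genes of the factors gave no member past the edgeR threshold in any of 5 lists. Of 24 HNF4A targets, 18 had a negative log2 fold change and 6 a positive one, where 8722 of 18043 tested genes were negative. The median was -0.18 (-0.28 to -0.14 with 1 library left out). At an unadjusted edgeR p under 0.05 there were 4 lower and 1 higher (8.82% and 9.10% of all genes), and by DESeq2 3 lower and 1 higher (3.48% and 3.10% of all genes). Pklr, liver pyruvate kinase, stood at -0.79 ± 0.23 on the log2 scale (SE; edgeR adjusted p = 0.178) and Apoc3, the inhibitor of triglyceride clearance, -0.63 ± 0.19 (0.186), and both were without overlap. The remaining lower ones at an unadjusted edgeR p under 0.05 were Creb3l3, at -3.50 ± 1.08 (0.198), and Apoa2, at -0.73 ± 0.29 (0.260). For both, the chows overlapped. Ttr, transthyretin, stood at -0.42 ± 0.18 (0.281), Apob at 0.34 ± 0.38 (0.662) and Cyp8b1, the sterol hydroxylase behind cholic acid, at -0.31 ± 0.21 (0.473). Cyp7a1, the rate-limiting enzyme of bile acid synthesis, was low throughout, at 1.20 ± 0.338 CPM under PE-MP chow and 0.814 ± 0.390 CPM under normal chow (SD, n = 3 each; edgeR adjusted p = 0.519).

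Of 13 C/EBP targets, 1 was higher and 2 lower at an unadjusted edgeR p under 0.05 (9.10% and 8.82% of all genes). Their median was 0.016 (-0.023 to 0.071 with 1 library left out). DESeq2 passed 1 as lower, Hamp (3.48% of all genes). The lower ones were Hamp, the iron hormone hepcidin (log2 fold change -1.03 ± 0.23 SE; edgeR adjusted p = 0.135), and Orm1, an acute-phase glycoprotein (-0.61 ± 0.21; 0.215). Tat, tyrosine aminotransferase, also a FOXA and ONECUT1 target, was the higher one at 917, 784 and 633 CPM under PE-MP chow against 600, 607 and 414 CPM under normal chow (0.53 ± 0.21 SE; edgeR adjusted p = 0.254). The gluconeogenic genes G6pc (0.31 ± 0.49) and Pck1 (0.36 ± 0.31) did not pass. Albumin, read by both C/EBP and FOXA proteins, stood at 0.016 ± 0.14 (log2, SE; edgeR adjusted p = 0.961).

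Of 11 targets of FOXA, the factor family whose member Foxa1 stood apart, 1 was higher (Tat) and 0 lower at an unadjusted edgeR p under 0.05. Over all genes the shares were 9.10% and 8.82%. DESeq2 passed 0 of the 11 FOXA targets (6.59% of all genes), and their median log2 fold change was 0.14, against 0.018 over all genes. That median was 0.047 without PE-MP library 1, 0.040 without PE-MP library 3 and 0.067 without normal chow library 3. Igfbp1, a classical FOXA target of fasted liver, held 38.9, 10.3 and 8.44 CPM under PE-MP chow and 32.3, 14.4 and 4.83 CPM under normal chow (0.16 ± 0.85 SE; edgeR adjusted p = 0.935). Of 7 ONECUT1 targets, 1 was higher and 1 lower at an unadjusted edgeR p under 0.05 (9.10% and 8.82% of all genes). Their median was -0.24 (-0.36 to -0.15 with 1 library left out). DESeq2 passed 1 as lower (3.48% of all genes). The lower one, also that of DESeq2, was Pfkfb1, the bifunctional kinase and phosphatase that tunes liver glycolysis. Pfkfb1 averaged 5.83 ± 1.6 CPM under PE-MP chow and 13.2 ± 3.51 CPM under normal chow (-1.18 ± 0.28 SE, edgeR adjusted p = 0.141). Without normal chow library 2, where 1075 genes of the whole table passed, it had -1.38 with an edgeR adjusted p of 0.0441. Of 11 NR5A2 targets, 0 passed an unadjusted edgeR p of 0.05 or DESeq2 (17.9% and 6.59% of all genes). Their median was 0.084, though -0.12 without normal chow library 3. Plk3 stood at 0.90 ± 0.50 and Scarb1, the HDL receptor, at -0.30 ± 0.14.

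**Figure D5:**
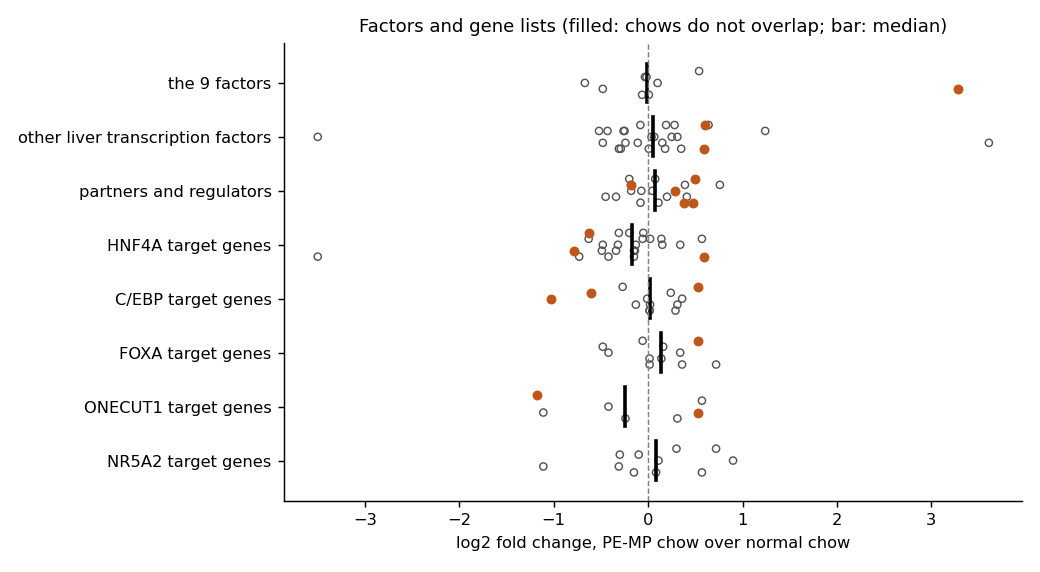
Log2 fold change of PE-MP chow over normal chow (horizontal axis) for the 9 factors and for the tested genes of 7 lists; each point is a gene, filled where the chows do not overlap, and the black bar is the list median. The medians lie between -0.24 (ONECUT1 targets) and 0.14 (FOXA targets), and Foxa1, at 3.28, is the far point among the 9 factors.

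Genes of the fetal liver, which Foxa1 and Onecut1 also serve, were near the limit of counting. Of 10 such genes 6 were tested, and 1 was higher and 0 lower at an unadjusted edgeR p under 0.05 (9.10% and 8.82% of all genes). The higher one was Peg3, an imprinted zinc finger gene (log2 fold change 4.21 ± 1.3 SE, edgeR adjusted p = 0.198). Peg3 held 0.677, 0.488 and 5.70 CPM under PE-MP chow and 0.0999, 0.266 and 0.0296 CPM under normal chow. Meg3 had 1.29 ± 0.55 and Igf2 -1.94 ± 1.21, with edgeR adjusted p of 0.286 and 0.438. The list median was -0.085 (-0.25 to 0.21 with 1 library left out), but 1.30 with no filter on low counts. That setting adds genes of the list with too few counts to be tested otherwise. After adjustment 0 of the 6 passed by edgeR and 0 by DESeq2, which gave Peg3 no adjusted p. A further list held 12 immediate early and acute response factors, of the class that moves with Cebpb in injured liver. At an unadjusted edgeR p under 0.05, 0 of them were higher and 1 was lower (9.10% and 8.82% of all genes). The lower one was Jund (-0.51 ± 0.16, edgeR adjusted p = 0.198), and the list median was -0.019 (-0.079 to 0.12 with 1 library left out). By DESeq2 0 of the 12 passed (6.59% of all genes). Stat3 and Egr1, the next by p, had -0.26 ± 0.15 and -0.43 ± 0.29.

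Other cells that make some of the factors also contribute RNA. The 11 myeloid markers summed to 123 to 193 CPM under PE-MP chow and 105 to 119 CPM under normal chow, with 6 higher and 1 lower at an unadjusted edgeR p under 0.05 (9.10% and 8.82% of all genes). None passed by edgeR after adjustment, while DESeq2 passed 3 higher and 1 lower (3.10% and 3.48% of all genes). The neutrophil protein S100a9 (log2 fold change 1.53 ± 0.27 SE) and the macrophage marker Cd68 (0.65 ± 0.15) were among the higher ones and the monocyte marker Ly6c2 (-1.04 ± 0.27) was the lower one, with edgeR adjusted p of 0.124, 0.140 and 0.155. The 7 sinusoidal endothelial markers summed to 142 to 182 CPM under PE-MP chow and 98.3 to 123 CPM under normal chow. All 7 had positive log2 fold changes, where 9321 of 18043 tested genes were positive, and 1 was higher at an unadjusted edgeR p under 0.05 (9.10% of all genes). Stab1 had 0.83 ± 0.19, Kdr 0.43 ± 0.20 and Clec4g 0.31 ± 0.18. After adjustment 0 of the 7 passed by edgeR, and DESeq2 passed 1 as higher, Stab1 (3.10% of all genes). The 7 adipocyte markers, of cells that also use C/EBP proteins, summed to 16.6 to 18.8 CPM under PE-MP chow and 17.1 to 35.5 CPM under normal chow, with Lep at 0 in all libraries and Retn at 0 in the PE-MP libraries. Cfd, adipsin, had -2.99 ± 0.87 and Fabp4 -0.19 ± 0.19. Of the 4 adipocyte markers tested, DESeq2 passed 2 as lower, Cfd and Retn (3.48% of all genes), and edgeR passed 0 after adjustment. Within the hepatocyte list, 1 marker was higher and 1 lower at an unadjusted edgeR p under 0.05 (9.10% and 8.82% of all genes). They were Tat, the higher one, and Apoa2, the lower one (-0.73 ± 0.29, edgeR adjusted p = 0.260). The part of these cells in the levels of Foxa1, Cebpa or Cebpb was not tested.

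The genes whose log2 level followed each factor most closely over the 6 libraries, out of 12594 with a mean of at least 1 CPM, were named as a description. With Foxa1 these were Dll1, a Notch ligand (Pearson r = 0.986), and Lyrm9 (0.981), both with small fold changes of 0.46 and 0.28 on the log2 scale. Hnf4a was followed by Rhbdf1 (0.980) and Prkcd (0.975), Foxa2 by Cc2d1a (0.989) and Zfp970 (0.988), and Foxa3 by Sf3b4 (0.997) and Nelfe (0.989), a splicing and a transcription elongation factor. For Onecut1 they were Slc52a2 (0.984) and Coil (0.979), for Cebpa Mrto4 (0.981) and Stard3nl (0.973), and for Cebpb Gm13375 (0.993) and Ap2m1-ps (0.986). Prox1 was followed by Maz (0.997) and Gdf10 (0.994) and Nr5a2 by 2310001H17Rik (0.992) and Setd2 (0.987). No factor had another of the 9 among its 2 closest genes. With 6 points that share depth and library make-up, such values arise among many genes: 9 to 43 genes had an r above 0.95 with a given factor.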

How the data were processed

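Total RNA from liver was sequenced after poly(A) selection with a strand-keeping kit, per the labels' protocols. The submitters deposited un-normalised read counts by gene, all whole numbers, per the file headers. The submitters' processing notes name bcl2fastq and the genome build GRCm39. Not given in the sources used here are the aligner, the counting program, the strand setting and the annotation. All 6 library files matched the table of the whole series. Symbols on more than 1 row (67 symbols, 939 rows) were kept apart. Junb stood on more than 1 row and was left out of its list.

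Groups came from the labels. The chows were compared by edgeR 4.0.16 under R 4.3.3 (quasi-likelihood F test, robust dispersions, TMM factors, default expression filter) on all 6 libraries, with Benjamini-Hochberg adjustment over 18043 genes and a threshold of 0.05. Standard errors and 95% intervals came from the coefficient and its F statistic. P-values were two-sided. Shares and ratios within a library were compared by exact permutation. Levels are CPM values computed here from the deposited counts and TMM factors. Alternatives used DESeq2 1.42.0, limma-voom (limma 3.58.1), other scaling factors and filters, a replicate block, offsets for transcript length and GC content (95% of tested genes had both), removal of mitochondrial and ribosomal rows, and each library left out in turn. Scripts were tested on simulated counts.

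The factors and gene lists were chosen with earlier results of these data known. Named were the 9 factors, their antisense or neighbouring RNAs, up to 3 genes with the smallest edgeR p of each list, 13 genes named whatever their values, and the 2 genes most alike each factor by Pearson r of log2 CPM. A few genes that the rule selects are not reported here. Ttc6 and Mipol1 were added afterwards, as the genes beside Foxa1. Markers listed at 0, Cela1, Slc4a2, Krt19 and Krt7 were also named outside the rule. Transcript lengths and gene spans came from GENCODE M21 (GRCm38), which holds 89.5% of the row symbols, and promoters from RefSeq (GRCm38.p6).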

Additional observations from a re-analysis of the deposited data

How the results depend on the processing

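The number of genes called over the whole table was 1 by edgeR and depended on the method: it was 3 with RLE factors, 1186 by DESeq2 (559 higher, 627 lower), 15 by limma-voom, 23 with no filter, 22 with a stricter filter, 3 with the length and GC offset, and 1 to 1075 when 1 library was left out. Leaving out normal chow library 2 gave the 1075 (452 higher, 623 lower), leaving out PE-MP library 2 gave 2, and leaving out either PE-MP library 3 or normal chow library 1 gave 3. The count of factors called was 0 under every alternative except DESeq2, which called 1 (Foxa1), and their median log2 fold change ran from -0.085 to 0.078 with 1 library left out. Of the genes in the lists of other factors, partners, targets, fetal and response genes and antisense RNAs, 0 were called by edgeR, 9 by DESeq2 (among them Apoc3, Creb3l3, Hamp, Hnf4aos, Ncoa3, Pfkfb1, Pklr and Zbtb20) and 0 to 8 with 1 library left out, the 8 being without normal chow library 2. The causes were not tested.

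Factors near 0 changed sign: Hnf4a was -0.0051 with RLE factors and by DESeq2 and -0.071 to 0.12 with 1 library left out. Nr5a2 was 0.0064 with upper-quartile factors and -0.31 to 0.26 with 1 library left out. With the length and GC offset Foxa3 was 0.079 and Cebpa 0.023, or 0.077 and 0.031 with the block added, and with 1 library left out they were -0.18 to 0.078 and -0.15 to 0.064. Foxa2 was -0.085 to 0.22, and the difference in its FOXA share was 0.502 points per kilobase and -1.52 to 1.24 points with 1 library left out, against 5.84 to 9.63 points for Foxa1. Foxa1, Onecut1, Cebpb and Prox1 kept their direction in all 16 alternatives, though Onecut1 ran from 0.20 to 1.07, Cebpb from -0.92 to -0.21 and Prox1 from -1.26 to -0.27. RLE factors shifted the median of all genes by -0.015.

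Libraries with the same replicate number had correlations of deviations of 0.00272, 0.0405 and 0.136, not all above 0.1, so the numbers were not taken to pair the samples. PE-MP libraries 2 and 3 correlated best with the normal chow library of the same number, and PE-MP library 1 with normal chow library 2 (0.12). With the replicate number as a block 0 genes and 0 factors were called, with or without the length and GC offset, and Foxa1 had a log2 fold change of 3.23 with an edgeR adjusted p of 0.243. Depth limits Foxa1 most, at 16 to 87 counts in normal chow libraries.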

Other observations

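Dbp, a clock-driven activator, differed more between libraries of a single chow than between chows. It held 2.23, 19.2 and 41.3 CPM under PE-MP chow and 2.08, 2.26 and 46.2 CPM under normal chow. Dbp was chosen after its values were seen. R3hdml, beside Hnf4a and also chosen by position after the fact, averaged 0.763 ± 0.0837 CPM under PE-MP chow and 0.334 ± 0.186 CPM under normal chow (SD, n = 3 each; log2 fold change 1.21 ± 0.45 SE, edgeR adjusted p = 0.240), without overlap.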
